A study of Gossypium hirsutum with 9 samples.

Results

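Among the genes of cotton ovules cultured on glucose, 125 had like mean levels at 50 and 150 mM and a higher level at 300 mM, with no overlap between the 300 mM libraries and the other 6. They were selected from 75376 IDs that start with Gohir by their measured values. With levels as log2(FPKM + 0.5) averaged over the 3 libraries of a concentration, the difference between 150 and 50 mM (the first step) had to be within 0.5, and the difference between 300 and 150 mM (the second step) at least 1. The mean FPKM at 300 mM had to be at least 2, and every 300 mM library had to lie above every 50 and every 150 mM library. FPKM is a read count per unit of gene length, scaled to the size of the library, so that levels of different genes can be set side by side. Because these values chose the genes, their differences between concentrations are given as a description, with no test.

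The RNA came from ovules of Gossypium hirsutum strain TM-1, kept for 5 days on 50, 150 or 300 mM glucose, with 3 libraries per concentration. All 9 libraries share the strain, the tissue and the time in culture. Total RNA of whole ovules was sequenced, so more cells of a type and more RNA per cell cannot be told apart. No osmotic control was analysed here, and the action of glucose as a sugar and that of the osmolarity of the medium cannot be told apart.

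Ovules in culture take their carbon from the medium, and fibres grow out of single cells of the ovule surface. In plants glucose is both a fuel and a signal, read by the enzyme hexokinase and by kinases that respond to the energy state of the cell. A concentrated sugar solution also draws water from cells, and plants are known to meet that stress with abscisic acid and protective solutes. Upland cotton is an allotetraploid whose A and D subgenomes come from different ancestors, so many genes are present as a pair of similar copies. The IDs used here are not paired with names or descriptions, and 0 of them were found in a RefSeq gene table of 99454 cotton genes. The genes are therefore described by level, spread, length and position in the genome, and not by function.

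Of the 75376 IDs, 40581 reached a mean FPKM of 2 at 300 mM, and 678 of these had a second step of at least 1. In 247 of the 678, every 300 mM library lay above the other 6 libraries. The limit on the first step then left out 43 genes that were lower at 150 than at 50 mM by 0.5 or more and 79 that were higher by as much, and kept the 125. Another 64 genes met every other condition and were left out because their libraries overlapped. Of all 40581 IDs at the FPKM minimum, 5.33% had every 300 mM library above the other 6, whatever the size of the step. The mirrored choice, with a first step within 0.5, a second step of -1 or below, a mean FPKM of at least 2 at 150 mM and every 300 mM library below the other 6, gave 538 genes. Both numbers depended on the scaling of the libraries. With values scaled to recovered reads they were 171 higher and 451 lower genes.

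**Figure D1:**
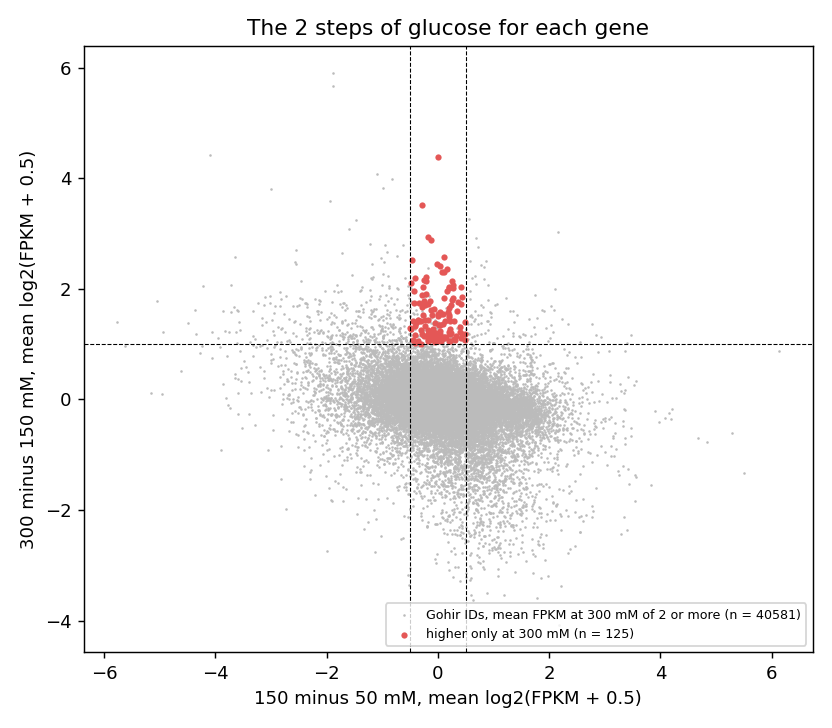
Difference between 150 and 50 mM (horizontal axis) and between 300 and 150 mM (vertical axis) in mean log2(FPKM + 0.5), for the 40581 Gohir IDs at the FPKM minimum (grey) and the 125 genes higher only at 300 mM (red). Dashed lines mark the limits of 0.5 and 1 used in the choice, and grey points inside the red field are genes whose libraries overlapped.

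Replicate 1 at 300 mM stood apart from its group. Across genes it correlated at 0.953 and 0.945 with replicates 2 and 3 at 300 mM, and at 0.929 to 0.958 with the 150 mM libraries. Replicates 2 and 3 correlated at 0.959 with each other and at 0.914 to 0.928 with the 150 mM libraries. Genes are not independent replicates. The recovered reads per library ranged from 17803705 to 19140279.

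The second step of the 125 genes had a median of 1.42 on the log2 scale and ran from 1.0 to 4.38, against a median of 0.0004 over the 40581 IDs. It was under 1.5 in 70 genes, at least 2 in 23 and at least 3 in 2. Their first step ran from -0.50 to 0.49, with 61 genes above 0 and 64 below. The FPKM at 300 mM over the mean of the 50 and 150 mM groups had a median of 3.15-fold and ran from 1.82-fold to 52.5-fold. The gap between the lowest 300 mM library and the highest of the other 6 had a median of 0.56 (log2). It was at least 1 in 18 genes and under 0.1 in 15, so that in these 15 the groups are barely apart.

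**Figure D2:**
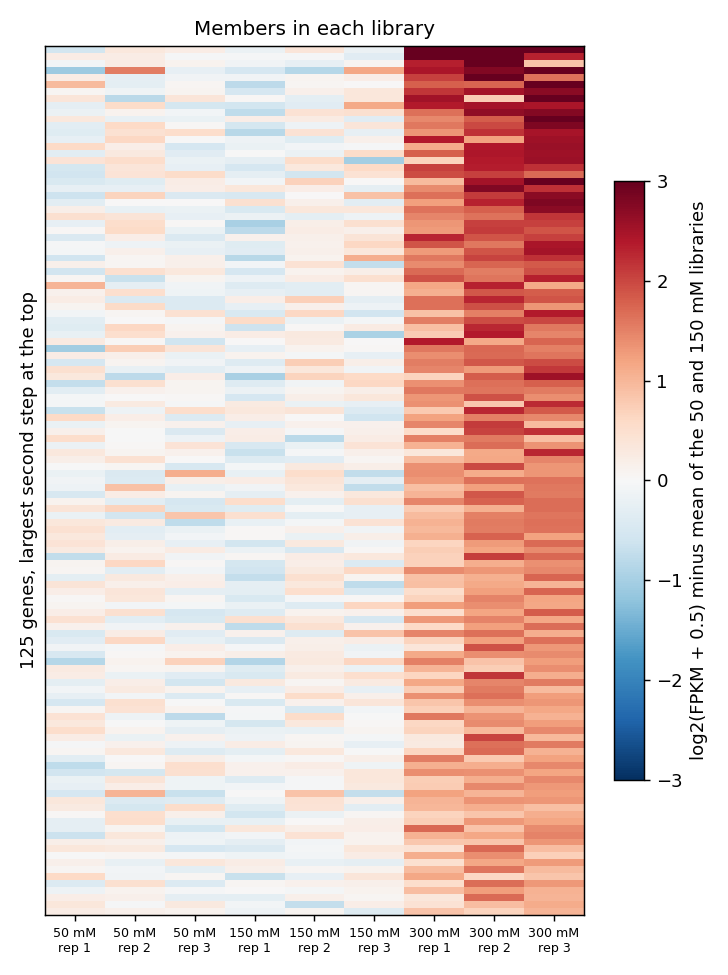
Level of each of the 125 genes (rows, largest second step at the top) in the 9 libraries, as log2(FPKM + 0.5) minus the mean of the 6 libraries at 50 and 150 mM. Colours saturate at a difference of 3 in either direction. The 300 mM columns are red throughout, and replicate 1 is paler than replicates 2 and 3 in most rows.

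The levels of these genes were modest. The median of the mean FPKM was 1.69 at 50 mM, 1.73 at 150 mM and 6.27 at 300 mM, where the 40581 IDs had a median of 9.71. At 300 mM, 47 genes had a mean FPKM under 5, 41 reached 10 and 7 reached 100. Over the 50 and 150 mM libraries together, 35 genes had a mean FPKM under 1, 58 from 1 to under 5, 21 from 5 to under 20 and 11 of 20 or more. The sizes of their steps are not compared between these classes, because a gene that starts low needs a larger step to reach the FPKM minimum at 300 mM. The addition of 0.5 before the logarithm understates both steps of the lowest genes, so their FPKM at 50 and 150 mM can be less alike than the limit implies. Gohir.A02G131900.v2.1, for instance, had a mean FPKM of 0.156 at 50 mM and 0.377 at 150 mM, with a first step of 0.41.

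Gohir.A05G019900.v2.1, of 207 bases on chromosome A05, had the largest second step. Its FPKM was 1.03, 2.31 and 2.1 at 50 mM, 1.47, 2.37 and 1.49 at 150 mM, and 56.0, 80.1 and 21.8 at 300 mM. The groups at 50 and 150 mM overlap, and the lowest library at 300 mM is far above both. The means were 1.81 ± 0.684 (SD, n = 3), 1.78 ± 0.514 and 52.6 ± 29.3, a second step of 4.38 (limma SE 0.427). The 6 lower libraries held 4 to 9 reads each and the 300 mM libraries 232, 324 and 90.

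Gohir.D05G021140.v2.1, of 438 bases on D05, was close to 0 below 300 mM. Its FPKM was 0.244, 0.242 and 0.124 at 50 mM, 0.116, 0.125 and 0 at 150 mM, and 6.05, 13.7 and 2.63 at 300 mM. The 6 lower libraries together held 7 reads and the 300 mM libraries 193. As for the first gene, replicate 2 was the highest and replicate 3 the lowest at 300 mM. Gohir.D05G072100.v2.1, of 792 bases, had 10 reads over the 6 lower libraries. Its FPKM at 300 mM was 2.02, 10.6 and 1.39. Here too 1 library, replicate 2, carried most of the mean.

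Gohir.A12G257100.v2.1 had the widest spread at 300 mM of all 125, with an SD of 2.30 on the log2 scale. Its FPKM was 0.289, 0.478 and 0.391 at 50 mM, 0.275, 0.197 and 0.371 at 150 mM, and 3.69, 33.7 and 0.993 at 300 mM. All 3 libraries at 300 mM were above the rest, but replicate 3 by far less than replicate 2. Gohir.A13G205900.v2.1 differed from these in that its lower groups were uneven. Its FPKM was 0.772, 7.39 and 1.79 at 50 mM and 1.42, 1.01 and 5.63 at 150 mM, against 14.5, 18.1 and 25.6 at 300 mM. The lowest 300 mM library was still above the highest of the others. Gohir.D09G143600.v2.1, of 177 bases, had 1 to 7 reads in each lower library, and its FPKM at 300 mM was 4.24, 4.05 and 13.3, with 15, 14 and 47 reads.

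A single abundant gene carried a large part of the reads. Gohir.D10G155200.v2.1, of 594 bases on D10, ranked 4 among the Gohir IDs by mean FPKM at 300 mM and 30 over the 50 and 150 mM libraries. Its FPKM was 1295, 1694 and 1081 at 50 mM, 1007, 957 and 1235 at 150 mM, and 2494, 4293 and 4199 at 300 mM. Replicate 1 was the lowest at 300 mM and was still above the highest 50 mM library. The means were 1357 ± 311 (SD, n = 3), 1066 ± 148 and 3662 ± 1012, a second step of 1.75 (limma SE 0.246). Together the 125 genes made up 0.117% to 0.17% of the reads in the 50 and 150 mM libraries, and 0.309%, 0.499% and 0.483% at 300 mM. Without Gohir.D10G155200.v2.1 the shares were 0.0545% to 0.0713% and 0.148%, 0.219% and 0.215%.

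The next most abundant gene was Gohir.A04G103900.v2.1, of 480 bases on A04. Its FPKM was 72.9, 124.6 and 87.4 at 50 mM, 43.5, 96.4 and 120.3 at 150 mM, and 214.9, 357 and 356 at 300 mM. It went from rank 1616 in the lower groups to rank 188 at 300 mM. Gohir.A10G170100.v2.1 had 122.8, 184 and 175.6 at 300 mM, against 48.7 to 96.5 in the other 6 libraries. Gohir.D05G186900.v2.1 had 101.4, 126.5 and 174.4, against 53.2 to 91.9. In both of these genes replicate 1 was the lowest at 300 mM and not far above the highest of the lower libraries. Gohir.A09G160500.v2.1 had 86.1, 151 and 122 at 300 mM, against 39.2 to 67.9, and Gohir.D07G162700.v2.1 had 81.4, 132 and 118, against 40.2 to 58.6. In all 6 of the most abundant genes, replicate 1 was the lowest at 300 mM.

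**Figure D3:**
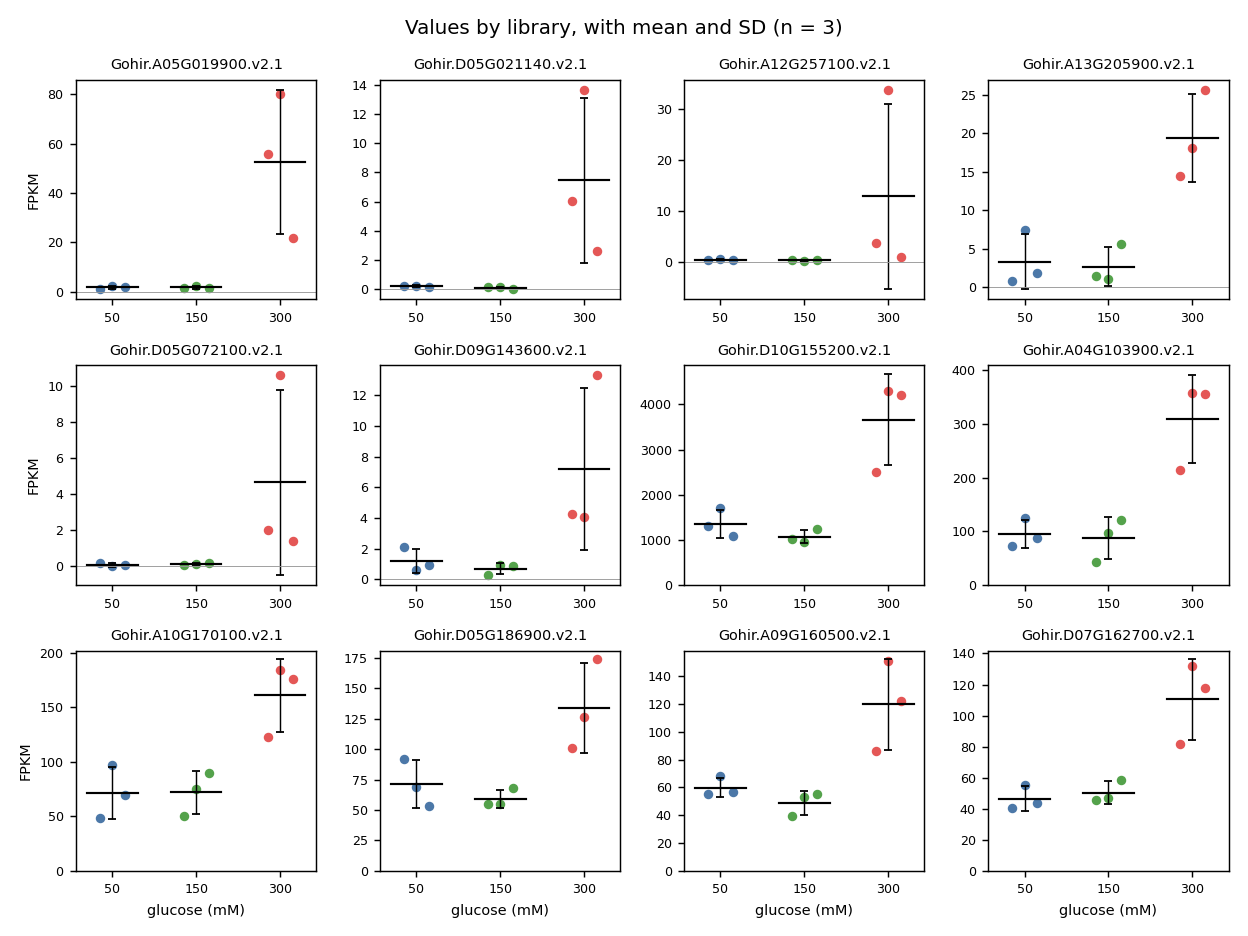
FPKM in each library at 50, 150 and 300 mM glucose, with the mean (line) and SD (bar, n = 3), for the 6 genes of largest second step and the 6 of highest FPKM at 300 mM. Each panel has its own vertical axis, and points run from replicate 1 on the left to replicate 3 on the right. In Gohir.A12G257100.v2.1 and Gohir.D05G072100.v2.1 a single library holds most of the 300 mM mean, while all 6 abundant genes have their lowest 300 mM value in replicate 1.

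Some genes were steady within 300 mM. Gohir.A04G023700.v2.1 had the smallest spread among genes with a mean FPKM of at least 10 there. Its FPKM was 12.01, 12.32 and 11.82 at 300 mM, a log2 SD of 0.03, against 2.89 to 4.26 in the other 6 libraries. Gohir.D10G187200.v2.1 had 72.1, 85.8 and 86.5 at 300 mM, against 22.9 to 39.0. Gohir.A11G292100.v2.1 had 12.6, 15.8 and 15.1, against 3.29 to 8.16, and Gohir.A10G132066.v2.1, of 207 bases, had 10.6, 12.6 and 11.6, against 2.98 to 7.23. These 4 were picked for their small spread at 300 mM, so their evenness there is a description only.

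At the limit of the second step the choice separates genes that hardly differ. Gohir.A09G099700.v2.1 was just inside, with a step of 1.0017, and its FPKM was 26.2, 23.0 and 29.8 at 300 mM against 10.8 to 16.8 elsewhere. Gohir.A09G033825.v2.1 was the next inside, with a step of 1.0254 and an FPKM of 2.22, 3.35 and 3.9 at 300 mM against 0.727 to 2.08. Gohir.D05G195900.v2.1 was just outside, with a step of 0.9976 and an FPKM of 3.57, 2.91 and 3.03 at 300 mM against 0.628 to 1.47. Gohir.D07G008600.v2.1 followed, with a step of 0.9972.

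A fit of all genes (limma, adjusted p under 0.05 over the 50988 genes that reached an FPKM of 1 in 3 or more libraries) covered 117 of the 125. The 8 others did not pass that filter. For 300 against 150 mM, 92 of the 117 were called higher, where 1.31% of all tested genes were. For 300 against 50 mM, 110 were called higher, where 16.0% were. For 150 against 50 mM limma called 0 of the 117, where 29.3% of all tested genes were called in either direction. Limma-voom on recovered reads also called 0 for that contrast, where 29.5% of all tested genes were called. At an unadjusted p under 0.05 the limma count was 7, and the share over all genes at that threshold was not computed. The choice used all 3 contrasts, which share libraries, and these counts are a description of how the chosen genes fared in the fit. The 92 became 103 without replicate 1 at 300 mM, where 2.66% of all tested genes were called higher. They became 53 without replicate 2 at 300 mM (0.394% of all) and 54 without replicate 1 at 150 mM (0.463% of all), so the share over all genes moved in the same direction.

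The libraries at 300 mM did not share the step equally. Replicate 1 was the lowest of the 3 in 86 of the 125 genes (68.8%), replicate 2 in 19 and replicate 3 in 20, whereas over all 40581 IDs replicate 1 was the lowest in 33.0%. Measured from the 150 mM mean, the median of the 125 genes was 1.18 in replicate 1, 1.59 in replicate 2 and 1.59 in replicate 3. A difference of at least 1 was reached by 77, 115 and 114 genes in the same order. Among the 538 genes lower only at 300 mM, replicate 1 was the highest of the 3 in 283, and over all 40581 IDs in 35.9%. The 40581 IDs had their FPKM minimum at 300 mM and the 538 genes at 150 mM. The median difference of the 538 from 150 mM was -1.37, -1.51 and -1.57. In both sets replicate 1 thus lay closer to the 150 mM libraries than replicates 2 and 3 did, in the medians.

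In 12 of the 125 genes 1 library at 300 mM was at least 2-fold above both others (9.6%, against 2.75% of all IDs at the FPKM minimum). It was replicate 2 in 7 genes, replicate 3 in 5 and replicate 1 in 0. The median log2 SD within 300 mM was 0.37 for the 125 genes and 0.20 for all IDs. At 50 and 150 mM the 125 genes had medians of 0.35 and 0.34. At 300 mM the fewest reads of a library had a median of 84 over the genes. Of the 125, 45 had a library under 50 reads there and 2 a library under 10, and none had a library at 0.

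A library that took no part in the choice shows how far the pattern carries. Each 300 mM library was left out in turn and the choice was repeated on the other 8. Without replicate 1, 257 genes were selected, 137 of them not among the 125. In the left-out replicate 1, 167 of the 257 (65.0%, 95% Wilson interval 59.0% to 70.6%) lay above all 50 and 150 mM libraries. Without replicate 2, 142 genes were selected and 121 (85.2%, 78.4% to 90.1%) lay above in replicate 2. Without replicate 3 the numbers were 157 and 130 (82.8%, 76.1% to 87.9%). Over all Gohir IDs at the same FPKM minimum the shares were 20.1%, 19.3% and 18.9%. The intervals count genes as independent, which they are not, and cover counting error only. The lower libraries are the same in the choice and in the reading, so a low value there favours both.

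Fewer of the selected genes reached a difference of at least 1 in the left-out library than lay above all lower libraries. The same held over all IDs, so these shares do not rank the size of the step against its direction. In the left-out library the median difference from the 150 mM mean was 0.62 for replicate 1, 1.33 for replicate 2 and 1.30 for replicate 3, and a difference of at least 1 was reached by 29.96%, 67.6% and 63.1% of the selected genes. Over all IDs these last shares were 1.05%, 2.66% and 2.60%. In replicate 1, 27 of 257 genes were at or below the 150 mM mean, against 7 of 142 in replicate 2 and 7 of 157 in replicate 3.

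**Figure D4:**
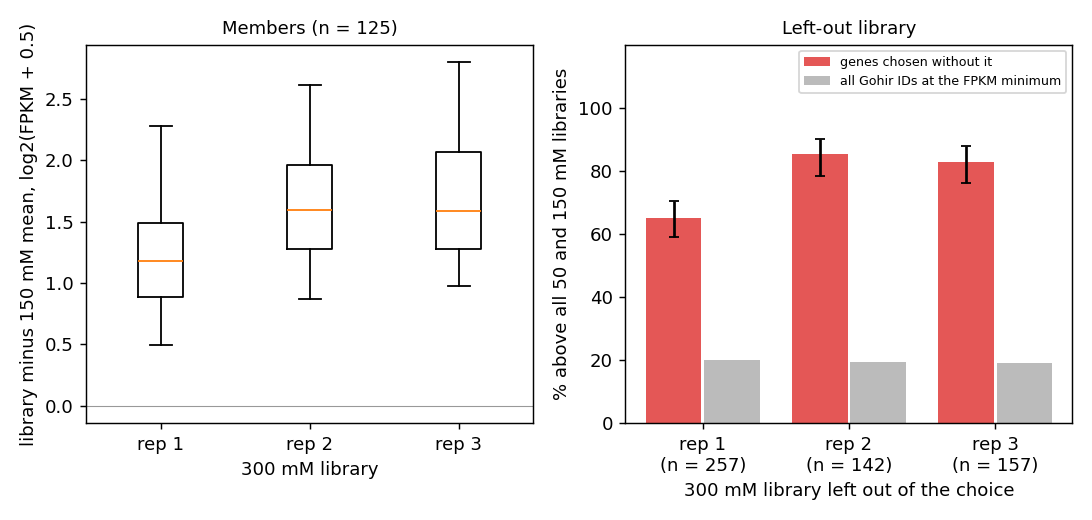
Left, difference of each 300 mM library from the 150 mM mean in log2(FPKM + 0.5) for the 125 genes (line, median; box, quartiles; whiskers, the 5th and 95th percentiles). Right, share of genes above all 50 and 150 mM libraries in a 300 mM library left out of the choice (red, with 95% Wilson intervals), beside all Gohir IDs at the FPKM minimum (grey). Replicate 1 is the lowest on both sides, at a median of 1.18 and a share of 65.0%.

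In the genome, 124 of the 125 IDs carry a chromosome and 1 is unplaced. The D subgenome held 68 of 20551 IDs at the FPKM minimum (0.331%) and the A subgenome 56 of 19956 (0.281%), and all 26 chromosomes held at least 1. By share of IDs, chromosome D10 came first with 10 of 1511 (0.662%) and D08 last with 1 of 1704 (0.0587%). Chromosome D05 held 11 genes, among them the second and the fifth by step, and A05 held 8. The 125 genes had a median coding length of 846 bases, from 126 to 4439, against 1068 for all IDs at the FPKM minimum. Of the 125, 30 were shorter than 500 bases, and 18.8% of all were.

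Few of these genes lay side by side, but the share was above that of all IDs. At an adjacent position 3.23% had another member, against 0.343% of all IDs at the FPKM minimum. With the IDs of a chromosome ordered by gene number, which was taken to follow position, 4 of 124 had another member within 3 positions, and these form a pair on A04 and a pair on D03. The share was 3.23%, against 0.96% of all IDs at the FPKM minimum. Within 10 positions it was 20 genes (16.1% against 3.09%). On A04, Gohir.A04G023601.v2.1 stands next to Gohir.A04G023700.v2.1. Its FPKM was 0.327, 0.974 and 0.199 at 50 mM, 0.187, 0.3 and 1.7 at 150 mM, and 4.71, 5.19 and 4.96 at 300 mM, so that both neighbours were steady at 300 mM. Their lengths are 1635 and 1665 bases.

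The D03 pair, Gohir.D03G138400.v2.1 and Gohir.D03G138500.v2.1, has the same length of 549 bases. The first had an FPKM of 5.46, 6.8 and 6.39 at 300 mM against 1.41 to 2.14 elsewhere, and the second 19.8, 26.2 and 31.7 against 8.24 to 18.9. The handling of reads shared by near-identical genes was not given in the sources used here, so values of neighbouring copies are uncertain. Whether shared reads have a part in such pairs was not tested.

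Genes beside a member that were not members themselves more often had a second step upward. Of 135 adjacent non-members at the FPKM minimum, 23 (17.0%) had a second step of at least 0.5, against 5.8% of all such IDs. Their median step was 0.11, against 0.0004. At 2 to 7 positions the share was 7.97% to 11.9%, and at 8 to 10 positions 3.91% to 6.11%. An ID near several members is counted for each. Without replicate 1 at 300 mM, 26 of the 135 reached 0.5, against 7.86% of all.

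On D11, a stretch picked after its values were seen has a member beside genes of other patterns. Gohir.D11G300300.v2.1 had an FPKM of 1.9, 1.02 and 1.05 at 50 mM, 1.87, 2.86 and 1.21 at 150 mM, and 6.03, 9.5 and 7.18 at 300 mM. The next ID, Gohir.D11G300400.v2.1, was no member. It had 0.682, 12.9 and 8.31 at 50 mM and was already at 389, 279 and 444 at 150 mM, with 1409, 379 and 560 at 300 mM. The ID before the pair, Gohir.D11G300200.v2.1, lay between 9.92 and 12.02 at 50 mM, between 20.1 and 24.1 at 150 mM, and between 19.1 and 23.2 at 300 mM. Of these 3 IDs in a row, the middle one alone had like levels at 50 and 150 mM.

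The copies in the other subgenome were looked for by position and length. A counterpart was an ID on the chromosome of the same number in the other subgenome, within 1% of the gene order and of exactly the same length, where there was just 1. Homology was not checked, since no sequences were used, and this definition was made after seeing the data. It cannot find a copy on a chromosome of another number or a copy of another length. The number of genes with a counterpart is thus no count of genes with a copy. Of the 124 genes 24 had such a counterpart, and in 20 it reached the FPKM minimum. Among these 20, 15 counterparts had a second step of at least 0.5 and 7 of at least 1, with a median of 0.88, against 1.22 for the members themselves. Over 8861 such pairs among all IDs, 4.1% of counterparts had a step of at least 0.5. The number was 14 of 20 without replicate 1 at 300 mM, against 6.55% over all pairs. In 9 of the 20, every 300 mM library of the counterpart lay above its other 6, against 5.33% of all IDs at the FPKM minimum. That share was not computed over the 8861 pairs. The part of shared reads was not tested here either.

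By this definition a single pair was in the set on both sides and counts for both. Gohir.A13G134200.v2.1 and Gohir.D13G137800.v2.1, each of 1527 bases, had an FPKM of 5.57, 10.3 and 13.0, and of 3.41, 7.4 and 7.87 at 300 mM. In the lower groups they were at 0.865 to 2.99 and at 0.233 to 1.25. Both were lowest in replicate 1 and highest in replicate 3 at 300 mM. This pair, the members named next and the genes of the next paragraph were picked after their values were seen. Gohir.A01G203500.v2.1 and Gohir.D01G193000.v2.1, both members of 825 bases, did not meet the definition. Other pairs of copies may therefore be in the set.

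Other pairs show how counterparts missed the conditions or went another way. The counterpart of Gohir.A12G257100.v2.1, Gohir.D12G258400.v2.1, had 5.59, 16.3 and 1.17 at 300 mM against 0 to 0.786 elsewhere, with replicate 2 high and replicate 3 low as in the A12 gene. It was left out by a first step of 0.84. Gohir.D09G156100.v2.1, opposite Gohir.A09G160500.v2.1, had 133, 204 and 199 at 300 mM against 56.3 to 124.4, and was left out by a first step of -0.52. Gohir.D11G074200.v2.1, opposite Gohir.A11G066400.v2.1, went the other way: it lay between 0.863 and 1.66 at 50 mM and between 15.3 and 17.97 at 150 mM, and had 11.2, 2.39 and 1.22 at 300 mM. The A11 gene had 5.43 to 9.82 in the lower groups and 11.5, 17.1 and 15.8 at 300 mM. In that D11 gene replicate 1 was again the 300 mM library nearest to the 150 mM level.

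**Figure D5:**
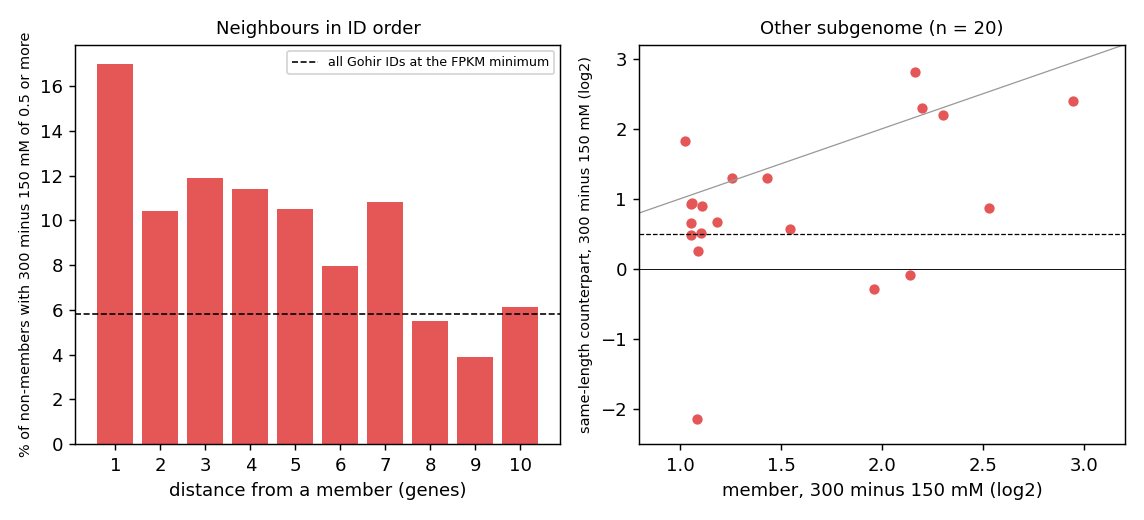
Left, share of non-member IDs at the FPKM minimum with a second step of at least 0.5, by distance in genes from a member, with the share over all such IDs as a dashed line (5.8%). Right, second step of 20 members (horizontal axis) and of their same-length counterpart in the other subgenome (vertical axis), with equality as a grey line and 0.5 as a dashed line. Of the counterparts 15 lie above 0.5 and 3 below 0.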

How the data were processed

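RNA sequencing libraries of cultured ovules were grouped by the glucose concentration in their titles. The authors deposited values for 80970 rows per library whose unit the headers do not name. They were taken as FPKM from the deposited values themselves, which are whole reads over a length and a library-size term. That term was 0.984 to 1.0 times the recovered reads at 50 mM, 1.0 to 1.05 times at 150 mM and 1.07 to 1.1 times at 300 mM, and its definition is not known. HISAT2 and featureCounts 1.5.0-p3 are named per the submitters' processing notes. Build, annotation and strand setting: not given in the sources used here. Whole reads were recovered from the values within a tolerance of 0.001. All 68279 rows above 0 gave whole reads, for 17803705 to 19140279 reads per library. Of Gohir lengths in rows well covered by reads 95.5% were divisible by 3, so lengths are called coding lengths. Rows outside the Gohir naming (5594) were left out of the choice, but entered the limma fit where they passed its filter.

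The members and gene lists were chosen with earlier results of these data known. Because the values were taken as FPKM, log2(FPKM + 0.5) was fitted with limma 3.58.1 (R 4.3.3, statmod 1.5.0, mean trend, robust) on all 9 libraries, with concentration as the only term and Benjamini-Hochberg adjustment. The fit, the recovery of reads and the choice of members were tested on simulated data. The labels do not state that a group's libraries were separate cultures, so their spread may be technical. Lists of pathway and cell type genes could not be used, since the IDs have no names.

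Named are the 6 genes with the largest second step, the 6 with the highest FPKM at 300 mM, the 3 highest at 50 and 150 mM (which are among those 6), the 4 of smallest spread at 300 mM with a mean FPKM of at least 10, the 2 nearest genes on each side of the second-step limit, and the pairs of neighbours. Others are said to be picked after their values were seen. Alternatives were other pseudocounts, filters, scalings, limits and windows, a replicate block, limma-voom on recovered reads, fits of the compared groups alone, and leaving out each library.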

Additional observations from a re-analysis of the deposited data

Results flagged for a closer look

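The choice covered Gohir IDs alone, while the limma fit took rows of either naming that passed its filter. Outside the Gohir naming, 4 numbered loci also met the numeric conditions of the choice. They are 4 of the 2460 such loci with a mean FPKM of at least 2 at 300 mM, beside 125 of 40581 Gohir IDs, a lower share. The locus of the largest second step, of 925 bases, had an FPKM of 4.05, 4.7 and 4.66 at 300 mM. Its other libraries were at 0 to 3.46, and 2 of them were listed at 0. The remaining loci had a mean FPKM of 4.19, 2.54 and 2.13 at 300 mM.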

How the results depend on the processing

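The number of genes selected was 120 to 171 under other pseudocounts and scalings (against 125), and 183 with no FPKM minimum. It was 79 with a first-step limit of 0.25, 55 with a second-step minimum of 1.5, 78 with an FPKM minimum of 5 and 189 with overlap allowed. Leaving out each library gave 127 to 257, the most without replicate 1 at 300 mM. A like count did not mean the same genes: 103 of the 125 were shared with the pseudocount at 0.1, 101 with it at 1 and 96 without replicate 1 at 150 mM, where 133, 120 and 129 were selected. The share of selected genes that lay above in the left-out replicate 1 was 73.2% with a second-step minimum of 1.5.

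Of the 125 genes, those called for 300 against 150 mM numbered 53 to 103 on leaving out each library (0.394% to 2.66% of all tested genes), for 300 against 50 mM 87 to 109 (11.6% to 15.7% of all), and for 150 against 50 mM 0 to 3, where 20.5% to 31.1% of all were called (2 without replicate 2 or without replicate 3 at 50 mM, 3 without replicate 2 at 150 mM). With a filter at an FPKM of 5 they were 53 and 58 for 300 against 150 and 50 mM, of 58 tested (1.51% and 17.9% of all). For 150 against 50 mM the count was 1 with the replicate block (25.4% of all) and 1 with scaling to recovered reads (29.5% of all). That scaling, chosen after seeing the data, moved the median of all genes for 300 against 50 mM from 0.0077 to 0.127 and that of the members from 1.45 to 1.56. With the replicate block 78 were called for 300 against 150 mM (0.847% of all) and 108 for 300 against 50 mM (13.8% of all). Libraries of the same number correlated at -0.27 to 0.10 in their deviations from the group means. Those of different number correlated at -0.25 to 0.24, so no pairing by number was seen. With 3 libraries per group these values cannot settle whether the numbers pair libraries. Members with another within 10 genes numbered 20, against 4 within 3. Same-length counterparts with a step of at least 0.5 were 9 of 12 within 0.5% of the gene order (3.86% over all pairs). Within 2% they were 22 of 25 (4.39% over all pairs), and both windows were added after seeing the data. Causes were not tested. At this depth, genes of low FPKM or short length rest on few reads.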
